A study of Mus musculus with 12 samples.

Results

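The EGR and AP-1 immediate early genes Egr1, Egr2, Egr3, Fos, Fosb, Fosl1, Jun, Junb, Jund and Ier2 were followed in TM3 cells, a mouse Leydig cell line, exposed to methoxyacetic acid (MAA), the acid formed in the body from the solvent ethylene glycol monomethyl ether. The cells had been given 1 mM or 5 mM MAA in serum-containing medium for 3, 8 or 24 h, and control cells had been given the medium without MAA for the same time. Each of the 6 conditions was measured on 2 arrays with exchanged dyes, replicate 1 with MAA in the green channel and replicate 2 with MAA in the red channel, and each RNA was a pool of 3 of the 6 cultures of that condition. All 12 arrays therefore compare pools of a single cell line. The tests below measure the spread between arrays. The 2 arrays of a condition also lay on different slides, so pool, dye orientation and slide cannot be told apart in it. The labels do not say whether the 1 mM and 5 mM arrays of a time had the same control RNA. The gene name column of the scanner files holds accessions in place of symbols, so the 10 genes were found through their RefSeq accessions, which gave 12 probes of 41174 on the array, with a pair of probes each for Junb and Ier2.

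Immediate early genes are transcribed within minutes of a signal without new protein synthesis, by factors such as SRF, the ternary complex factors and CREB that already sit in the nucleus and are acted on by MAP kinases, calcium and cyclic AMP. EGR proteins are zinc finger factors that bind GC-rich sites, and their activity is restrained by the NAB corepressors. AP-1 is a dimer of a JUN protein with a FOS or another JUN protein, and Ier2 is a small nuclear protein induced with them. In the gonad and pituitary, Egr1 is best known for its part in luteinizing hormone production, and in Leydig cells hormone signals through cyclic AMP induce several of these genes.

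Promoter sequences serve here to show which response elements lie close to the start of members that moved and of 1 that was not called. The 250 bases before each RefSeq start (build GRCm38.p6) could be read for 6 of the 10 members, in 10 windows, of which Egr2 has 5, and 32851 windows of all genes were searched in the same way on both strands. Capitals mark the TGACG core of a cyclic AMP response element (CRE), the CRE-like octamer TGACNTCA, the AP-1 site TGANTCA and the CArG box bound by SRF. Fos lies at chr12:85473890-85477274, Egr2 at chr10:67534469-67542188, Jun at chr4:95049036-95052222 and Fosb at chr7:19302696-19310118. Fos, Egr2 and Jun, which were called at 5 mM, and Fosb, which was not, are shown 5′ to 3′ on the strand of the gene:
Fos, chr12:85473640-85473889, plus strand: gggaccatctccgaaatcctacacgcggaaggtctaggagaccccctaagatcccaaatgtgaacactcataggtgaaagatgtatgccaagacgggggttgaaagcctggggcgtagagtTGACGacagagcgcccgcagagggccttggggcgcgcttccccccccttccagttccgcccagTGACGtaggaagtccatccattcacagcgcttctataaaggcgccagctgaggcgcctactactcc
Egr2, the third of its windows, chr10:67537619-67537868, plus strand: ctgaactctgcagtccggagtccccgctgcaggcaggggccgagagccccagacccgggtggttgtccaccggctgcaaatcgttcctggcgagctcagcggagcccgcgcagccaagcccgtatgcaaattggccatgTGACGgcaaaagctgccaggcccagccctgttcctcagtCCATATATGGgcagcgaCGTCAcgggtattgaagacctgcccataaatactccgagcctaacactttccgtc
Jun, chr4:95052223-95052472, minus strand: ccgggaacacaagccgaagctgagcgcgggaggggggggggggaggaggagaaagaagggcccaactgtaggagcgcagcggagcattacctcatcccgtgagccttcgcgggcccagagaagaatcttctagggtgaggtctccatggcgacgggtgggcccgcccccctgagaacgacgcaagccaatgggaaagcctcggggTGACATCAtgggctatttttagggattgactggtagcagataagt
Fosb, chr7:19310046-19310295, minus strand: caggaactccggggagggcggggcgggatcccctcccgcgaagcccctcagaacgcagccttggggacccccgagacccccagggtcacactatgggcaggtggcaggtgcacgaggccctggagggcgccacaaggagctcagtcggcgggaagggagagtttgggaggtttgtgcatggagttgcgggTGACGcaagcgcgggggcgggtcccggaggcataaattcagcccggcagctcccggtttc
The CRE core was found in 17.8% of all windows, the CRE-like octamer in 7.49%, the AP-1 site in 6.75% and the CArG box in 1.47%. The windows shown for Fos and Egr2 hold 2 CRE cores each, at -129 to -125 and -66 to -62 for Fos and at -111 to -107 and -55 to -51 for Egr2, whose window also holds a CArG box at -72 to -63. Of the other windows of Egr2, 2 overlap it and hold as many CRE cores and a CArG box, while the first and second hold no CRE core and the first no CArG box. The Jun window holds no CRE core and has the octamer at -45 to -38, where TGACATCA stands. The Fosb window holds a CRE core at -60 to -56 and a match to the EGR site GCGNGGGCG at -50 to -42, a motif found in 4.7% of all windows. The Junb window has a CRE core at -106 to -102, and the Jund window has none of the motifs searched, the GC box GGGCGG among them, which 32.7% of windows hold. No member window has the AP-1 site. The windows have a GC content of 58.4% for Fos, 61.6% for Egr2, 61.2% for Jun and 68.8% for Fosb, against a median of 52.4% over all windows. These matches describe letters, and binding was not measured.

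The arrays differed little in quality. Between 61.5% and 70.5% of probes were well above background in the control channel, 124 to 208 spots per array were left out as outliers, and the median log2 ratio of an array was between -0.13 and 0.15. The log2 ratios of the 2 arrays of a condition correlated across probes well above background with r between 0.69 and 0.84 at 5 mM, but with r of 0.15, 0.36 and 0.60 at 1 mM for 3, 8 and 24 h. Over all probes r was 0.50, 0.63 and 0.64 at 5 mM and -0.13, 0.13 and 0.31 at 1 mM. Among Leydig cell markers, Star, Cyp17a1 and Insl3 were well above background in the control cells on all 12 arrays, and Cyp11a1, Hsd3b1, Hsd3b6 and Lhcgr on none. 4 lists of other cells also had members well above background on all 12 arrays, with 4 of 5 fibroblast, 2 of 5 Sertoli, 1 of 3 peritubular and 1 of 3 germ cell markers, while 0 of the 2 macrophage markers with a probe were. In a bulk culture, a lower level per cell and fewer cells that express a gene cannot be told apart.

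A member was called when its log2 ratio of MAA over control had an unadjusted p under 0.005 in limma with all 12 arrays and exceeded 2-fold at 5 mM, or 1.5-fold for the 1 mM arrays. At 5 mM, 4 of the 10 members were called at 3 h (Egr1, Egr2, Fos and Ier2), 3 at 8 h (Egr2, Fos and Jun) and 3 at 24 h (Egr1, Egr2 and Fos), all higher with MAA. The share of all probes called higher was 2.02%, 3.06% and 3.85% at these times. At 1 mM, 2 members were called at 3 h (Egr1 and Egr2), 1 at 8 h (Fos) and 2 at 24 h (Egr2 and Jun), again all higher, against 1.32%, 1.72% and 3.26% of all probes called higher. The median log2 ratio of the members was 0.73, 0.47 and 0.76 at 5 mM and 0.11, 0.25 and 0.25 at 1 mM, whereas that of all probes was -0.10, -0.04 and 0.03 at 5 mM and 0.02, 0.02 and -0.07 at 1 mM. No member was called lower in any condition, where 1.74%, 2.49% and 1.77% of all probes were called lower at 5 mM and 0.627%, 0.656% and 1.41% at 1 mM. With normexp background correction and loess in place of the deposited processed signals, 4, 3 and 3 members were called at 5 mM but 0, 0 and 1 (Jun at 24 h) at 1 mM. The share of all called probes that were higher was 53.8% at 5 mM and 3 h, or 67.3% with arrays centred on their median, and 67.9% and 69.8% at 1 mM and 3 h and 24 h, or 50.9% and 81.4% with normexp and loess.

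**Figure D1:**
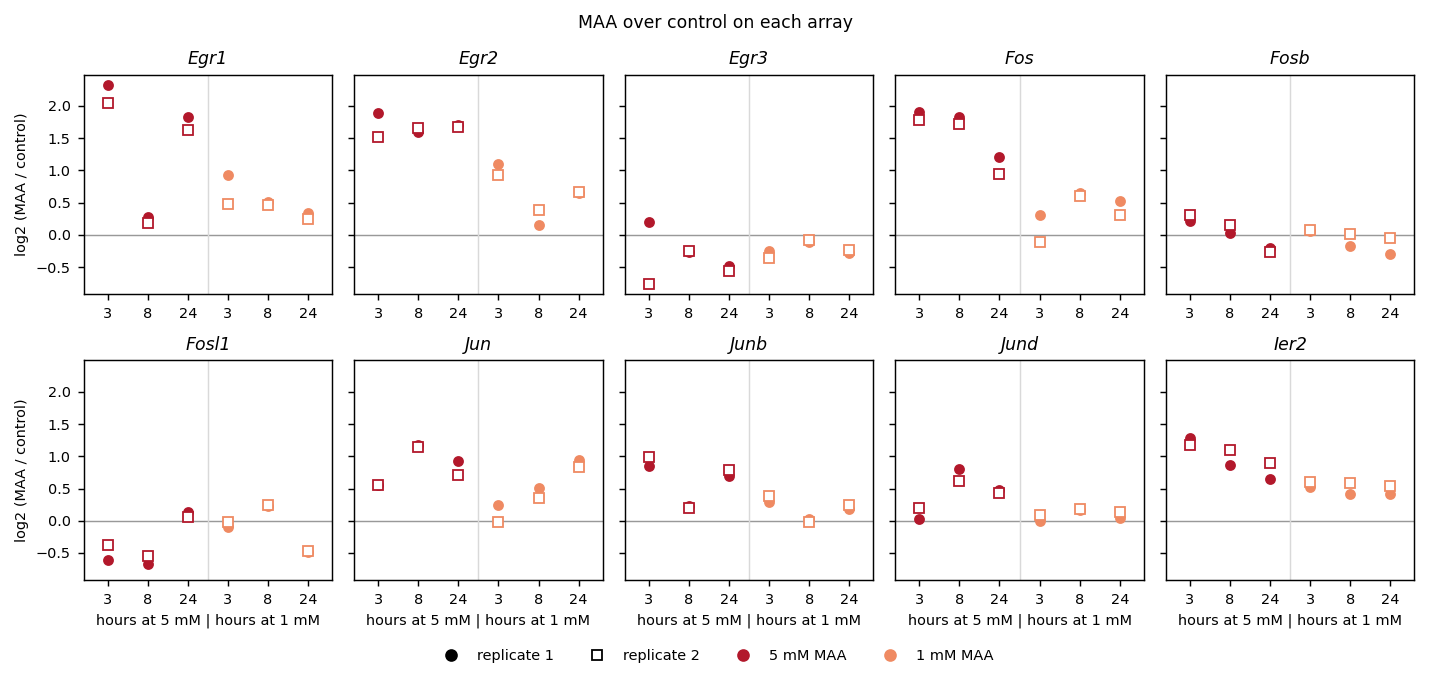
Log2 ratio of MAA over control for each of the 10 members, with 1 point for each of the 2 arrays of a condition, at 5 mM and 1 mM after 3, 8 and 24 h. Egr1 lies at 2.33 and 2.04 at 5 mM and 3 h, at 0.28 and 0.19 at 8 h and at 1.83 and 1.62 at 24 h, while Egr2 stays between 1.51 and 1.89 at all 3 times.

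Egr1, the best studied EGR factor, rose early and late with 5 mM MAA and not at 8 h. The log2 ratios of replicates 1 and 2 were 2.33 and 2.04 at 3 h, 0.28 and 0.19 at 8 h, and 1.83 and 1.62 at 24 h. The pairs at 3 h and 24 h lay far above the pair at 8 h. In limma these were a 4.54-fold increase at 3 h (log2 2.18, SE 0.119, adjusted p = 3.36e-05), a ratio that did not pass at 8 h (log2 0.23, adjusted p = 0.203) and a 3.30-fold increase at 24 h (log2 1.72, adjusted p = 6.14e-05). The ratio fell from 3 h to 8 h by 1.95 on the log2 scale (adjusted p = 0.00329) and rose from 8 h to 24 h by 1.49 (adjusted p = 0.00341), contrasts that passed for 5.1% and 8.91% of all probes. At 1 mM the log2 ratios were 0.93 and 0.48 at 3 h, 0.51 and 0.46 at 8 h, and 0.34 and 0.24 at 24 h. All 6 were above 0, and the replicates at 3 h were the widest apart. The 1.63-fold increase at 3 h was called (adjusted p = 0.0198), but without replicate 1 the log2 ratio was 0.48 and the call was lost, as it was with normexp and loess (log2 0.39). The 8 h value was 0.48 (adjusted p = 0.0622) and the 24 h value 0.29 (adjusted p = 0.181).

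Egr2, an EGR factor known from myelination and immune cells, was higher at all times with 5 mM MAA by a similar amount. Its log2 ratios were 1.89 and 1.51 at 3 h, 1.60 and 1.66 at 8 h, and 1.71 and 1.67 at 24 h. The fitted folds were 3.24, 3.09 and 3.22 (limma, SE 0.0999 on the log2 scale, adjusted p at most 4.37e-05). The ratio moved from 3 h to 24 h by -0.01, with a 95% interval from -0.34 to 0.32. At 1 mM the log2 ratios were 1.09 and 0.93 at 3 h, 0.15 and 0.39 at 8 h, and 0.64 and 0.66 at 24 h. Egr2 was thus called 2.01-fold higher at 3 h (adjusted p = 0.0033, but log2 0.34 and no call with normexp and loess) and 1.57-fold higher at 24 h (adjusted p = 0.00754, likewise not called with normexp and loess at log2 0.43), with the lowest pair at 8 h (log2 0.27, adjusted p = 0.194). The normexp setting adds an offset of 50 to the signals, which draws ratios at low signal toward 0. The control signal of Egr2 at 3 h was 71.7 to 79.4. The part of the offset in these lost calls was not tested. The probe was spotted 10 times on each array, and the median SD over spots of an array was 0.0702 log2 units.

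Egr3 gave no usable change. Its probe was dim, with MAA-treated cells well above background on 7 and control cells on 10 of the 12 arrays. The log2 ratios at 5 mM were 0.20 and -0.77 at 3 h, -0.27 and -0.25 at 8 h, and -0.48 and -0.55 at 24 h, and none was called (limma, lowest adjusted p = 0.0744, at 24 h). At 1 mM they were -0.11 and -0.08 at 8 h, and -0.28 and -0.24 at 24 h. At 1 mM and 3 h neither array had the MAA channel well above background, so no fold is given there.

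FOS proteins need a JUN partner to bind DNA, and of those among the members only Fos was called. Fosl2, a FOS protein outside the members, was called lower at 5 mM and 3 h and is described with the other AP-1 factors. The log2 ratios of Fos at 5 mM were 1.90 and 1.79 at 3 h, 1.82 and 1.72 at 8 h, and 1.21 and 0.95 at 24 h. The pair at 24 h lay below those of the earlier times. Fos was 3.59-fold higher at 3 h, 3.41-fold at 8 h and 2.11-fold at 24 h (limma, SE 0.115 on the log2 scale, adjusted p = 5.44e-05, 4.09e-05 and 3.81e-04). Its ratio fell from 8 h to 24 h by 0.69 (adjusted p = 0.0411) and from 3 h to 24 h by 0.77 (adjusted p = 0.0187), the latter contrast passing for 15.8% of all probes. Without replicate 1 at 24 h the log2 ratio there was 0.95, under the fold threshold. At 1 mM the log2 ratios were 0.31 and -0.12 at 3 h, 0.65 and 0.60 at 8 h, and 0.53 and 0.31 at 24 h. The replicates at 3 h had opposite signs, and only the 1.54-fold increase at 8 h was called (adjusted p = 0.0254), a call lost when either array was left out.

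Fosb and Fosl1 were not called at either concentration. Fosb, a close relative, had log2 ratios of 0.21 and 0.31 at 3 h, 0.03 and 0.15 at 8 h, and -0.20 and -0.27 at 24 h with 5 mM MAA, and none was called. Its ratio was lower at 24 h than at 3 h by 0.50 (limma, adjusted p = 0.025). Fosl1, which encodes FRA1, an AP-1 protein that lacks the strong activation domain of FOS, had log2 ratios of -0.61 and -0.37 at 3 h, -0.67 and -0.55 at 8 h, and 0.13 and 0.06 at 24 h. Those at 3 h and 8 h were below 0 on every array, with fitted values of -0.49 (SE 0.0726, adjusted p = 0.00219) and -0.61 (adjusted p = 5.83e-04), but neither reached the 2-fold threshold. At 1 mM Fosl1 had -0.09 and -0.01 at 3 h, 0.22 and 0.25 at 8 h, and -0.49 and -0.48 at 24 h (fitted -0.48 at 24 h, adjusted p = 0.00704, under 1.5-fold). The largest and smallest ratios thus fell at different times at the 2 concentrations. From 8 h to 24 h the ratio rose at 5 mM by 0.71 (adjusted p = 0.00764) and fell at 1 mM by 0.72 (adjusted p = 0.0391), a contrast passed by 0.576% of all probes at 1 mM. At 1 mM Fosb had ratios between -0.29 and 0.08 and was not called.

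Of the JUN proteins, Jun, the main partner of FOS, was called. Its log2 ratios at 5 mM were 0.55 and 0.55 at 3 h, 1.18 and 1.15 at 8 h, and 0.93 and 0.71 at 24 h, so that its highest pair was at 8 h, when that of Egr1 was lowest. The fitted increases were 1.47-, 2.24- and 1.76-fold (limma, SE 0.0874 on the log2 scale, adjusted p = 0.00301, 7.30e-05 and 3.78e-04), and only that at 8 h was over 2-fold. The rise of the ratio from 3 h to 8 h was 0.61 (adjusted p = 0.0364). At 1 mM the log2 ratios were 0.25 and -0.01 at 3 h, 0.51 and 0.36 at 8 h, and 0.94 and 0.83 at 24 h. The 1.85-fold increase at 24 h was called (adjusted p = 0.00138), and the ratio at 24 h exceeded that at 3 h by 0.77 (adjusted p = 0.0306, passed by 1.85% of all probes).

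Junb and Jund, JUN proteins that often oppose Jun in cell growth, were not called at either concentration. Junb had log2 ratios of 0.85 and 0.99 at 3 h, 0.23 and 0.20 at 8 h, and 0.70 and 0.79 at 24 h with 5 mM MAA. The pairs at 3 h and 24 h lay above that at 8 h, as for Egr1, and the 1.89-fold ratio at 3 h (limma, adjusted p = 6.91e-05) was under the fold threshold, although with arrays centred on their median it was called (log2 1.03). Its ratio fell from 3 h to 8 h by 0.71 (adjusted p = 0.00847) and rose from 8 h to 24 h by 0.53 (adjusted p = 0.0118). The other Junb probe gave fitted log2 ratios of 0.83, 0.22 and 0.64 at 5 mM and of 0.27, 0.01 and 0.18 at 1 mM, near the 0.92, 0.21 and 0.75 and the 0.33, 0.00 and 0.22 of the main probe. Jund had 0.02 and 0.20 at 3 h, 0.81 and 0.62 at 8 h, and 0.47 and 0.43 at 24 h, with its highest pair at 8 h as for Jun. Its ratio rose from 3 h to 8 h by 0.60 (adjusted p = 0.0219). With 1 mM MAA the ratios of Jund lay between -0.01 and 0.19.

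Ier2, which is often induced together with Fos and Egr1, had log2 ratios of 1.29 and 1.18 at 3 h, 0.86 and 1.10 at 8 h, and 0.65 and 0.90 at 24 h at 5 mM. The fitted increases were 2.36-, 1.98- and 1.71-fold (limma, adjusted p = 1.07e-04, 1.89e-04 and 6.42e-04), and the first was called. Its ratio at 24 h differed from that at 3 h by -0.46 (adjusted p = 0.0535). At 1 mM all 6 arrays were above 0, between 0.41 and 0.60. The fitted folds were 1.47, 1.41 and 1.39 (adjusted p = 0.0188, 0.0254 and 0.0182), all just under the 1.5-fold threshold. The other Ier2 probe was dim. At 5 mM and 3 h its MAA channel was well above background on both arrays and its control channel on neither. Only a lower limit of 1.45-fold is therefore given for the change. At 8 h the lower limit was 1.06-fold, with the MAA channel well above background on 1 array and the control channel on neither.

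The 3 members spotted 10 times per array show how much of the spread lay within an array. Between 8 and 10 spots per array remained after outliers were left out, with a median SD over spots of 0.0702 log2 units for Egr2, 0.0467 for Fos and 0.0303 for Jun. The gap between the means of the 2 arrays of a condition ran from 0.018 to 0.38 for Egr2. For Fos it ran from 0.047 to 0.43 and for Jun from 0.0008 to 0.26. The largest gaps were wider than the spread over spots, and the smallest lay near or below it. The spots of the 2 arrays did not overlap in 1 of 6 conditions for Egr2, in 3 for Fos and in 4 for Jun. All spots at 5 mM lay above all spots at 1 mM at 3 of 3 times for Egr2 and for Fos and at 2 of 3 for Jun. Spots of an array share its RNA, and they enter the tests as a mean.

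**Figure D2:**
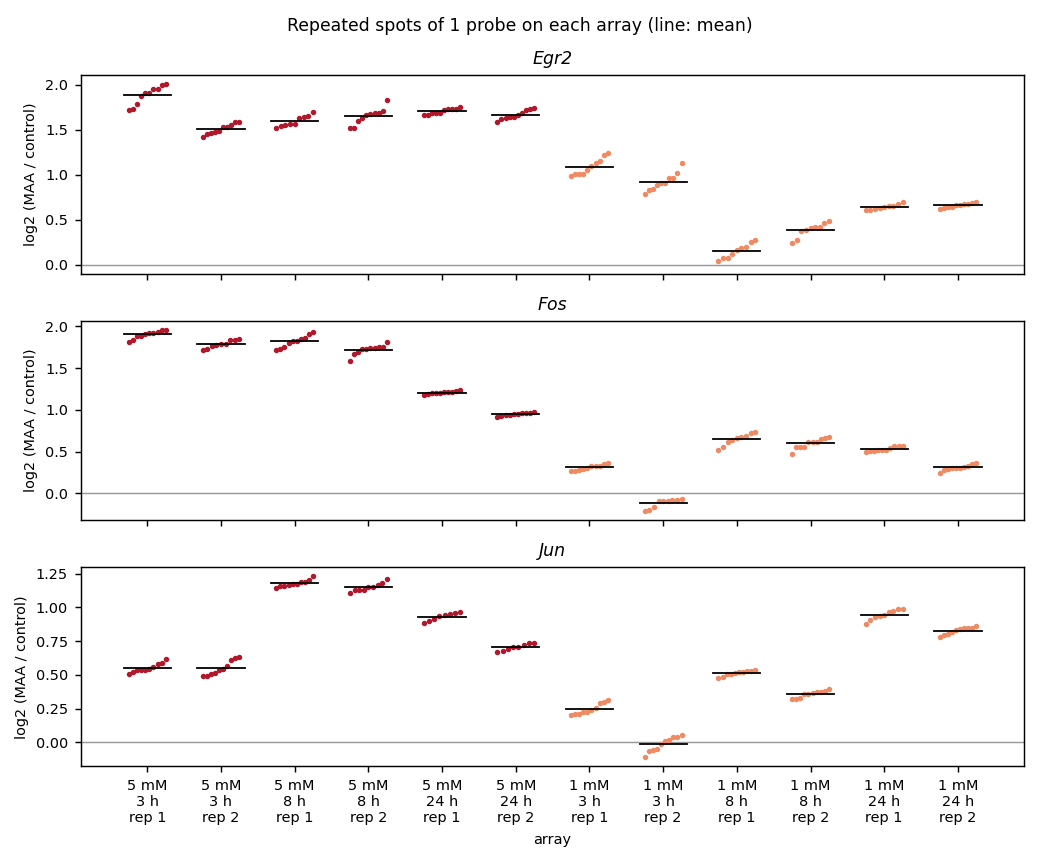
Log2 ratio of MAA over control for every spot of the Egr2, Fos and Jun probes on the 12 arrays, sorted by value within each array, with the arrays of each condition side by side. For Jun the 2 arrays of a condition stand apart in 4 of 6 conditions, and at 24 h the spots of both concentrations overlap.

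The difference between 5 mM and 1 mM at the same time was tested directly, and 5 of the 10 members passed an adjusted p under 0.05 at 3 h, 5 at 8 h and 4 at 24 h, against 3.4%, 10.1% and 8.41% of all probes. At 3 h, Fos differed by 1.75 (95% interval 1.37 to 2.13, adjusted p = 0.00655) and Egr1 by 1.48 (1.09 to 1.87, adjusted p = 0.00938). Within the slide that held both concentrations at 3 h, these differences were 1.59 and 1.40. Egr2 differed by 0.69 at 3 h (adjusted p = 0.0463), Ier2 by 0.68 (adjusted p = 0.0387) and Junb by 0.58 (adjusted p = 0.0188). The within-slide values of Egr2, Ier2 and Junb were 0.80, 0.77 and 0.57.

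At 8 h another set stood apart between the concentrations. Egr2 differed by 1.36 (adjusted p = 0.00252), Fos by 1.15 (adjusted p = 0.00672), Jun by 0.73 (adjusted p = 0.0123) and Jund by 0.54 (adjusted p = 0.0189), while Fosl1 was lower at 5 mM by 0.84 (limma, adjusted p = 0.00409). The within-slide differences on slides 2 and 3 were 1.45 and 1.27 for Egr2, 1.17 and 1.12 for Fos, and -0.89 and -0.79 for Fosl1. Egr1 did not pass at 8 h, with a difference of -0.25 and a 95% interval from -0.64 to 0.14. At 24 h, Egr1 differed by 1.44 (adjusted p = 0.00368), Egr2 by 1.04 (adjusted p = 0.00639), Fosl1 by 0.58 (adjusted p = 0.016) and Junb by 0.53 (adjusted p = 0.0126). Fos lay at the threshold (0.66, adjusted p = 0.0505), and the ratio of Jun at 5 mM was near that at 1 mM, with a difference of -0.07 and a 95% interval from -0.36 to 0.22. Egr2 passed at all 3 times, but at 3 h not with slide as a block (adjusted p = 0.0662) or with centred arrays (adjusted p = 0.097). Fos at 24 h had an adjusted p between 0.00522 and 0.0864 under the other settings that kept all arrays, and it passed in all of these but centring.

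Each of these dose differences was refitted with every array left out in turn. Fos at 3 h, Egr2, Fos and Fosl1 at 8 h and Egr1 at 24 h passed in every such fit. The others each missed the threshold without at least 1 array, so that 1 to 3 members passed at 3 h, 3 to 5 at 8 h and 1 to 5 at 24 h. At 3 h the highest adjusted p was 0.0512 for Egr1 (without 5 mM replicate 2), 0.206 for Egr2 (without 1 mM replicate 2), 0.164 for Ier2 (without 1 mM replicate 1) and 0.105 for Junb (without 5 mM replicate 2). At 8 h it was 0.0783 for Jun (without 1 mM replicate 2) and 0.109 for Jund (without 5 mM replicate 1). At 24 h it was 0.0513 for Egr2 and 0.0922 for Junb (both without 1 mM replicate 1) and 0.0979 for Fosl1 (without 5 mM replicate 1). No difference that passed with all arrays moved by over 1.5 times or changed its sign.

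Of the changes in the 5 mM ratio with time, those of Egr1 passed without each of the arrays, with adjusted p at most 0.0341. With only the 6 arrays of 5 mM in the fit, they were at 0.077 for 3 h to 8 h and 0.0532 for 8 h to 24 h, and no time contrast of any member passed. Without replicate 2 at 8 h the 3 h to 8 h contrast no longer passed for Jun (adjusted p = 0.155) and Junb (0.0637), and without replicate 1 at 8 h not for Jund (0.109). Without replicate 2 at 24 h the contrasts of Fos (0.21 against 8 h and 0.113 against 3 h), Fosb (0.126) and Junb (0.087 against 8 h) did not pass, and without replicate 1 at 24 h those of Fosl1 did not (0.0616 against 8 h and 0.0611 against 3 h). At 1 mM the contrast of Jun was lost without any of the 12 arrays (adjusted p up to 0.18) and that of Fosl1 without 10 of them (up to 0.25).

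**Figure D3:**
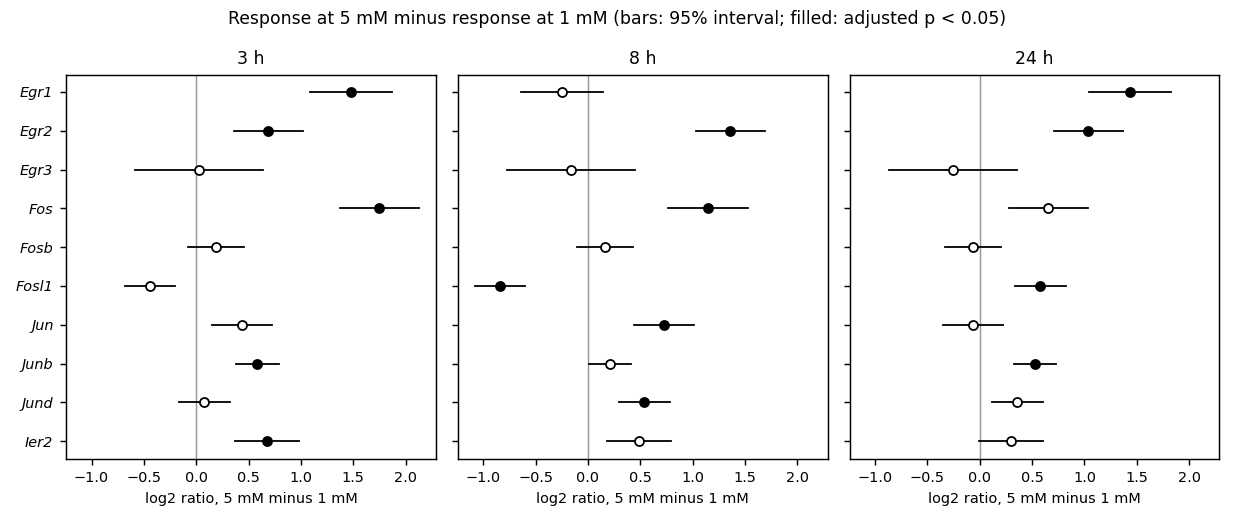
Difference in log2 ratio between 5 mM and 1 mM MAA for each member at 3, 8 and 24 h, with 95% intervals from limma. The intervals of Fos at 3 h (1.37 to 2.13) and of Egr1 at 3 h (1.09 to 1.87) lie well above 0, that of Egr1 at 8 h (-0.64 to 0.14) includes 0, and Fosl1 lies below 0 at 8 h.

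The 2 channels were also read singly, after normalization to a common scale, to see how control and MAA-treated cells moved over time. In control cells, at an adjusted p under 0.05, 4 members passed from 3 h to 8 h, 8 from 8 h to 24 h and 7 from 3 h to 24 h, against 38%, 37% and 47.9% of all probes, so the members are to be read by the size of their changes. With the control channels of the same time and replicate number averaged, the case in which they hold the same RNA, 3, 5 and 7 members passed and the shares were 11.7%, 12.7% and 28.7%. Averaging was applied to control cells only. Tests in MAA-treated cells have 2 arrays per condition and take their spread from all 24 channels. If the controls share RNA, their adjusted p may be too small. The control channels at 1 mM and 5 mM correlated across probes with r between 0.988 and 0.994 for the same replicate number and between 0.986 and 0.992 for the other, which leaves shared and separate control RNA undistinguished.

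Egr1 had a control signal of 485 to 554 on the 4 arrays at 3 h, of 2721 to 2980 at 8 h and of 7620 to 8797 at 24 h. The ranges did not overlap, and the level rose 15.7-fold from 3 h to 24 h (log2 3.97, SE 0.0756, limma adjusted p = 1.31e-16, or 0.0014 with averaged controls), with 3.85 to 4.02 within each of the 3 slides. MAA-treated cells at 5 mM had Egr1 signals of 2572 and 2274 at 3 h, 3622 and 3099 at 8 h, and 27089 and 24502 at 24 h. Treated cells thus rose by only 0.48 on the log2 scale from 3 h to 8 h (adjusted p = 0.00179) against 2.46 in control cells (adjusted p = 2.17e-13), and then by 2.95 from 8 h to 24 h (adjusted p = 1.82e-12) against 1.51 in control cells (adjusted p = 4.62e-11). At 8 h both kinds of cells therefore had similar levels, with control cells already at more than the 3 h level of treated cells. With 1 mM MAA the Egr1 signal was 924 and 758 at 3 h, 4170 and 3983 at 8 h, and 10706 and 10391 at 24 h.

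Egr2 and Fos showed no passing change in control cells from 3 h to 8 h (0.01 and -0.09 on the log2 scale, adjusted p = 0.934 and 0.421) and rose afterwards. With slide as a block the change of Fos was -0.21 and passed (adjusted p = 0.00473), with -0.26 and -0.12 within the 2 slides that held both times. The control signal of Egr2 was 71.7 to 79.4 at 3 h, 70.5 to 79.6 at 8 h and 273 to 288 at 24 h, and that of Fos 165 to 195, 159 to 178 and 638 to 804. From 8 h to 24 h control cells rose in Egr2 by 1.91 and in Fos by 2.09 on the log2 scale (limma, adjusted p = 1.18e-13 and 1.08e-12, or 0.00633 and 0.00764 with averaged controls). The rise from 3 h to 24 h lay between 1.85 and 1.94 within slides for Egr2 and between 1.96 and 2.07 for Fos. At 5 mM the Egr2 signal was 266 and 226 at 3 h, 241 and 227 at 8 h, and 891 and 908 at 24 h. That of Fos was 641 and 661, 584 and 585, and 1539 and 1552. Control cells at 24 h thus reached the Fos signal that treated cells had at 3 h and 8 h. The lower Fos ratio at 24 h went with a rise of 1.40 in treated cells after 8 h (adjusted p = 1.40e-08) beside the 2.09 of control cells.

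Fosl1 moved the other way. Its control signal was 1788 to 1967 at 3 h, 547 to 681 at 8 h and 237 to 266 at 24 h, a 7.41-fold fall (log2 -2.89, limma adjusted p = 7.11e-16, or 0.00145 with averaged controls), with -2.95 to -2.85 within slides. At 5 mM the signal was 1285 and 1425 at 3 h, 394 and 374 at 8 h, and 288 and 248 at 24 h, so that treated cells lay below all control arrays at the earlier times, whereas at 24 h their range overlapped that of the control arrays. At 1 mM it was 1801 and 1771, 795 and 753, and 190 and 179. These lay above all control arrays at 8 h and below them at 24 h. Fosl1 fell from 3 h to 24 h at both concentrations, with log2 changes of -2.33 at 5 mM (adjusted p = 1.16e-12) and -3.29 at 1 mM (adjusted p = 3.68e-14).

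Jun rose in control cells in smaller steps, from 294 to 322 at 3 h through 430 to 471 at 8 h to 549 to 619 at 24 h. At 5 mM its signal was 443 and 472 at 3 h, 1012 and 1045 at 8 h, and 1056 and 1009 at 24 h. Treated cells had reached their level by 8 h, with a change of 0.01 from 8 h to 24 h (limma, adjusted p = 0.968), and at 1 mM they reached 1057 and 1070 at 24 h, from 615 and 601 at 8 h. Ier2 had a control signal of 548 to 611 at 3 h, 476 to 599 at 8 h and 862 to 1043 at 24 h, and rose from 8 h to 24 h by 0.82 (adjusted p = 2.81e-08, or 0.0184 with averaged controls). Junb rose in control cells by 0.44 from 3 h to 24 h (adjusted p = 2.53e-08, or 0.0253 with averaged controls). Changes in control cells of Jun by 0.35, Junb by 0.36 and Jund by 0.23 from 8 h to 24 h, and of Jund by -0.19 from 3 h to 8 h, no longer passed with averaged controls (adjusted p = 0.0998, 0.0709, 0.201 and 0.276), and the last was 0.08 without normalization between arrays. Egr3 and Fosb did not pass in control cells between any times.

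**Figure D4:**
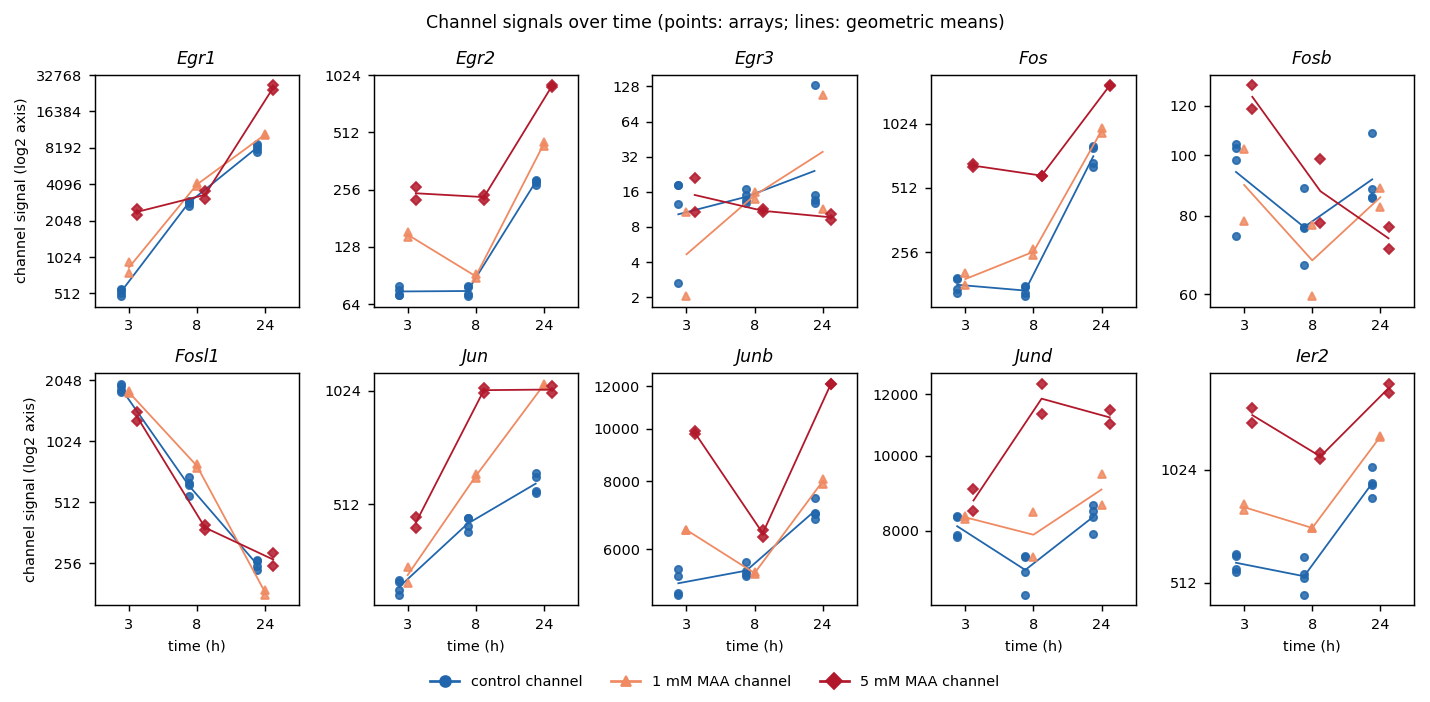
Normalized signal (log axis) of each member in control cells and in cells given 1 mM or 5 mM MAA at 3, 8 and 24 h, shown as separate positions that are not spaced to scale, with 1 point per array and lines through the means. Egr1 in control cells climbs from 485 to 554 at 3 h to 7620 to 8797 at 24 h, and Fosl1 falls from 1788 to 1967 to 237 to 266.

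In MAA-treated cells, 7, 6 and 8 members passed from 3 h to 8 h, from 8 h to 24 h and from 3 h to 24 h at 5 mM, where 32.7%, 35% and 44.3% of all probes passed. At 1 mM these were 6, 7 and 7 members, against 28.1%, 31.9% and 41.1% of probes. Egr1 rose from 3 h to 24 h by 3.43 at 5 mM and by 3.64 at 1 mM (limma, adjusted p = 9.05e-14 and 6.17e-14). All tests in treated cells carry the limit given above for shared control RNA. Egr2 at 1 mM fell from 3 h to 8 h by 0.73 (adjusted p = 2.18e-06), whereas at 5 mM its change was -0.07 (adjusted p = 0.632). Junb at 5 mM fell from 3 h to 8 h by 0.62 and rose from 8 h to 24 h by 0.91 (adjusted p = 1.08e-07 and 5.50e-10). Without normalization between arrays, which raised the median of all probes from 3 h to 8 h from -0.00 to 0.34 at 5 mM and from -0.03 to 0.28 at 1 mM, the 3 h to 8 h changes were -0.17 for Egr2 at 1 mM (adjusted p = 0.786) and -0.34 for Junb at 5 mM (adjusted p = 0.319).

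Other genes of the same pathways were read from fixed lists. Over all probes, 6.05% were called higher and 4.08% lower at some 5 mM time, and 4.64% and 2.29% at some 1 mM time, the shares to set beside the counts of these lists. Among 30 other immediate early genes with a probe, 11 were called higher and 0 lower at some 5 mM time, with 9 at 3 h, 6 at 8 h and 5 at 24 h, and 6 higher and 0 lower at 1 mM. The median log2 ratio of the list was 0.61, 0.49 and 0.32 at 5 mM. Ccn2, the matricellular growth factor CTGF, had ratios of 1.75 and 2.27 at 3 h, 2.35 and 2.59 at 8 h, and 2.15 and 2.19 at 24 h (fitted 4.02-, 5.55- and 4.49-fold, limma adjusted p at most 7.48e-05). Ccn1, its relative CYR61, was 3.54-fold higher at 3 h and 4.18-fold at 8 h (adjusted p = 2.87e-05 and 1.32e-05) but had a log2 ratio of 0.08 at 24 h. Nr4a1, an orphan nuclear receptor that acts on steroidogenic genes in Leydig cells, was 3.78-fold higher at 3 h and 2.09-fold at 8 h (adjusted p = 1.32e-05 and 3.75e-05). Plk3, a stress-responsive kinase, was 3.18-fold higher at 3 h (adjusted p = 9.44e-05). Like Ccn1, Nr4a1 and Plk3 were not called at 24 h.

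**Figure D5:**
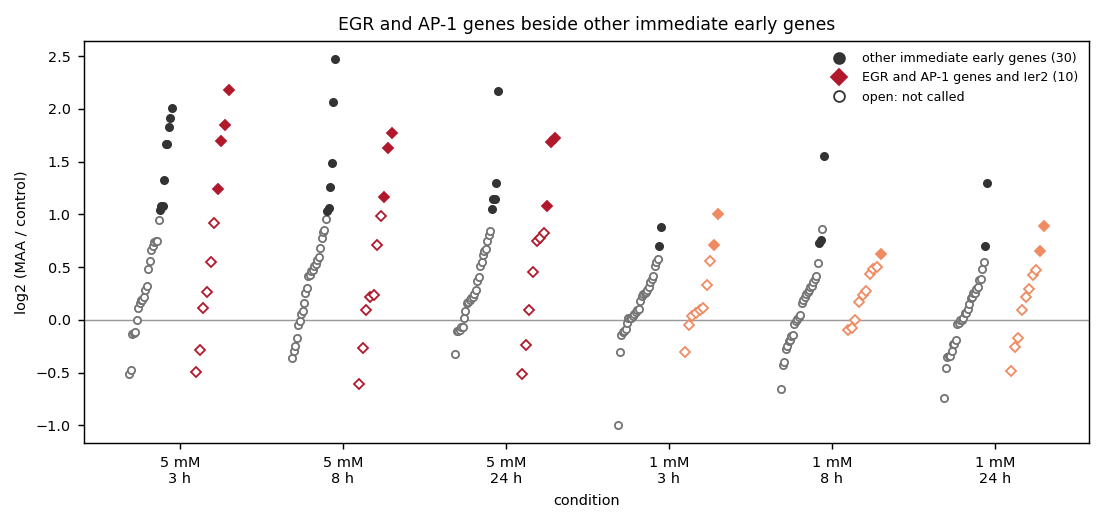
Log2 ratio of MAA over control for the 30 other immediate early genes with a probe, at 5 mM and 1 mM and 3, 8 and 24 h. At 5 mM 9, 6 and 5 of the genes were called higher and 0 lower, and Ccn2 reaches the highest ratio, 2.47 at 8 h.

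The genes that restrain or partner these factors were read next, beside the same shares of all probes. None of the 3 EGR relatives and cofactors (Egr4, Nab1 and Nab2) was called, and Nab2, which binds EGR proteins and represses them, had fitted log2 ratios of -0.74, -0.80 and -0.51 at 5 mM (limma, adjusted p = 0.0051, 0.00279 and 0.0231), under the fold threshold. Among 11 other AP-1 and MAF factors, 4 were called higher and 2 lower at some 5 mM time, and 2 higher at 1 mM. Fosl2, another FOS protein, was 2.36-fold lower at 3 h, with ratios of -1.10 and -1.38 (adjusted p = 1.21e-04), and Maf, a large MAF factor, was 2.84-fold lower at 3 h and 2.44-fold lower at 8 h (adjusted p = 4.15e-04 and 6.00e-04). Batf3, a JUN partner known from dendritic cells, was 2.43-fold higher at 8 h (adjusted p = 3.19e-04). Batf was among those called at both concentrations at 24 h but was not well above background in either channel on any array, so no fold is given. Of 17 genes for SRF, the ternary complex factors and MAP kinases, 1 was called at 5 mM, the kinase gene Rps6ka5, with ratios of 1.27 and 0.75 at 8 h (fitted 2.01-fold, adjusted p = 6.58e-04), and 0 were called at 1 mM.

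Textbook targets of the factors formed the last lists. Their counts stand beside 6.05% of all probes called higher and 4.08% lower at some 5 mM time. At some 1 mM time these shares were 4.64% and 2.29%. Of 12 EGR1 targets, 1 was called higher and 1 lower at 5 mM, namely the growth factor gene Igf2, 2.42-fold higher at 24 h (limma, adjusted p = 3.55e-04), and F3, which encodes tissue factor, 2.30-fold lower at 3 h (adjusted p = 7.35e-05). At 1 mM, 3 EGR1 targets were called higher. Nab2, read above among the cofactors, is also in this list of targets and was not called at either concentration. Of 14 AP-1 targets, 3 were called higher and 2 lower at 5 mM, and 4 higher at 1 mM. Hbegf, an EGF receptor ligand, was 3.36-fold higher at 3 h and Spp1, which encodes osteopontin, 4.74-fold higher at 24 h (adjusted p = 2.85e-05 and 1.04e-04). The metalloproteinase genes Mmp3 and Mmp13 were 3.99- and 2.73-fold lower at 24 h (adjusted p = 8.04e-06 and 4.17e-05). At 1 mM and 24 h Mmp3 had ratios of 1.58 and 1.49 and was called 2.89-fold higher (adjusted p = 1.61e-04), where at 5 mM its ratios were -2.12 and -1.87. The median log2 ratio at 5 mM was -0.09, 0.18 and 0.25 for EGR1 targets and 0.08, 0.17 and 0.22 for AP-1 targets.

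Among 15029 probes with a symbol and a signal on all arrays, those whose log2 ratios over the 12 arrays were most like Egr1 were Dusp6 (Pearson r = 0.955), Rap2b (0.944), Zfyve21 (0.927), Junb by its other probe (0.924) and Polm (0.916). Dusp6 encodes a phosphatase that switches off ERK, and its fitted log2 ratios at 5 mM were 1.31, -0.00 and 1.01, low at 8 h as for Egr1. The probes most like Fos were those of Zfp346 (0.976), Snapc1 (0.957), Tpst2 (0.953), Mtmr10 (0.951) and Med26 (0.951). The 12 arrays come from 6 conditions, so these coefficients describe likeness over few independent points.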

How the data were processed

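Pools of RNA from TM3 cells given 1 mM or 5 mM MAA and from control cells were compared on 12 Agilent arrays of 2 colours, placed 4 to a slide. The deposited scanner files hold intensity values from Feature Extraction 9.5.3.1, in which the authors had background subtracted and the dyes brought to one scale (linear and LOWESS). The authors' value file of each array holds log10 ratios of MAA over control. Control spots and outlier spots were left out, repeated spots were averaged, and log2 ratios were formed from the processed intensities and set in the direction MAA over control, with no centring. Array number limits the precision.

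All 12 arrays were fitted in limma 3.58.1 (R 4.3.3, package data.table, version 1.17.8) with 1 coefficient per condition, Benjamini-Hochberg adjustment over all probes, 6 residual and 1.52 prior degrees of freedom. The study's own error model was not available, and limma stood in for it at the study's thresholds. Channels were read singly after Aquantile normalization, with an intraspot correlation of 0.203. A probe of a member was named by its highest mean signal, and up to 4 called genes of each list by their largest change at 5 mM. The likeness to Egr1 and Fos was ranked by Pearson r. The members, lists and tests were chosen with earlier results of these data known. Members were matched through RefSeq accessions, which gave symbols for 22072 probes, and promoter windows came from RefSeq on GRCm38.p6. Sequences are not given for Egr1, Egr3, Fosl1 and Ier2. Alternatives were normexp with an offset of 50 and loess, the deposited ratios, centring, a filter on dim probes, outlier spots kept, blocks for replicate number and slide, the 6 arrays of a concentration alone, channels without normalization between arrays, averaged controls, and fits without each single array. The ratio fit and the separate channel fit were first tested on simulated data. Figures were drawn with Python 3.11.15 and matplotlib 3.10.9.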

Additional observations from a re-analysis of the deposited data

Results flagged for a closer look

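The control signal of Egr3 at 24 h lay between 12.7 and 15.1 on 3 arrays and at 131 on replicate 1 of 1 mM, a gap of 0.928 of the range of the 4 arrays. The control signal of Fosb was 74.3 on replicate 2 of 1 mM at 3 h, below the 98.4 to 104 of the other arrays (0.83 of the range), and 109 on replicate 1 of 1 mM at 24 h, above their 85.4 to 88.4 (0.856 of the range). These are 3 of 30 groups of 4 arrays examined, and chance would give such a gap in about 1 of 20.

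Over all probes, 3.4%, 10.1% and 8.41% passed an adjusted p under 0.05 in limma between 5 mM and 1 mM at 3, 8 and 24 h. For the 5 mM ratio the share was 5.1% from 3 h to 8 h. It was 8.91% from 8 h to 24 h and 15.8% from 3 h to 24 h. At 1 mM, 0 probes passed from 3 h to 8 h. The 1 mM shares to 24 h were 0.576% from 8 h and 1.85% from 3 h. Of 90 differences of members between concentrations or between times examined, 27 passed this threshold. Between 5 mM and 1 mM they were, on the log2 scale at 3 h, 1.48 for Egr1, 0.69 for Egr2, 1.75 for Fos, 0.58 for Junb and 0.68 for Ier2, at 8 h 1.36 for Egr2, 1.15 for Fos, -0.84 for Fosl1, 0.73 for Jun and 0.54 for Jund, and at 24 h 1.44 for Egr1, 1.04 for Egr2, 0.58 for Fosl1 and 0.53 for Junb. In the 5 mM ratio from 3 h to 8 h they were -1.95 for Egr1, 0.61 for Jun, -0.71 for Junb and 0.60 for Jund, and from 8 h to 24 h 1.49 for Egr1, -0.69 for Fos, 0.71 for Fosl1 and 0.53 for Junb. From 3 h to 24 h they were -0.77 for Fos, -0.50 for Fosb and 0.59 for Fosl1. In the 1 mM ratio they were -0.72 for Fosl1 from 8 h to 24 h and 0.77 for Jun from 3 h to 24 h. Fosl1 is the member whose ratio from 8 h to 24 h passed in opposite directions at the 2 concentrations.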

How the results depend on the processing

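For MAA over control, each member's call and the sign of a called ratio held in 533 of 540 values under the other settings. With 1 array left out they held in 713 of 720 values, while contrasts were less stable. A change of sign in a ratio called in neither fit was not counted. Counts of members below are main values followed by those under the setting. With normexp and loess, the members called at 1 mM were 2, 1 and 2 against 0, 0 and 1, and the 1 mM contrast of 24 h and 8 h had 1 against 0. The 5 mM contrast of 24 h and 3 h had 3 members against 5 with the deposited log10 ratios or a filter on dim probes, and that at 1 mM had 1 against 2 with either. With arrays centred on their median, 2 members passed between concentrations at 3 h and 2 at 24 h (main 5 and 4), and 1, 2 and 1 in the 5 mM contrasts of 8 h and 3 h, 24 h and 8 h, and 24 h and 3 h (main 4, 4 and 3), with 0 for 24 h and 8 h at 1 mM. The 2 replicate numbers mark dye orientation. Arrays of the same number deviated together with r of 0.075 to 0.515 (median 0.375) over 15 pairs, 14 of them above 0.1. Since 1 pair was under 0.1 and the numbers name separate pools, the fit has no replicate block. The deviation that arrays of a number share therefore stays in its residual spread. With a replicate block, the dose differences of Fosl1 and Jun at 3 h, Ier2 at 8 h and Fos and Jund at 24 h also passed (adjusted p = 0.027, 0.0254, 0.0178, 0.0088 and 0.0493), and 6 members passed from 3 h to 24 h at 5 mM and 2 at 1 mM. With slide as a block, Ier2 at 8 h and Fos at 24 h also passed between concentrations, and 3 passed between concentrations at 3 h, 5 from 3 h to 24 h at 5 mM and 0 from 8 h to 24 h at 1 mM. With only the 6 arrays of a concentration, 0 passed in any 5 mM time contrast, 0 in the 1 mM contrasts of 24 h with 8 h and with 3 h, and 0 were called at 1 mM and 8 h. In control cells from 8 h to 24 h, 8 members passed, or 5 without normalization between arrays and 5 with averaged controls, and in 5 mM MAA cells from 3 h to 8 h, 7 passed or 4 without it. Without that normalization, which raised the all-probe median from 3 h to 8 h in control cells from -0.05 to 0.31, the changes that turned were those of Jund in control cells from 3 h to 8 h (0.0773), Fosb in 5 mM cells from 3 h to 8 h (0.14) and 24 h (0.0614), Ier2 in 5 mM cells from 3 h to 8 h (0.0694) and Junb in 1 mM cells from 3 h to 8 h (0.011). With 1 array left out, the counts ranged from 0 to 1 at 1 mM and 8 h, and between concentrations from 1 to 3, 3 to 5 and 1 to 5 at 3, 8 and 24 h. In time contrasts they ranged from 1 to 4, 1 to 4 and 1 to 3 at 5 mM, and from 0 to 1 for 24 h and 8 h and 0 to 0 for 24 h and 3 h at 1 mM.

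Over all probes, 1547, 2284 and 2315 were called at 5 mM, or 534, 1030 and 881 with normexp and loess, and 803, 977 and 1925 at 1 mM, or 116, 398 and 500. Between concentrations 1399, 4162 and 3462 passed, ranging over the other settings from 220 to 4003, 1491 to 8166 and 1525 to 7210, and with 1 array left out down to 82, 1059 and 816. In the time contrasts 2101, 3670 and 6510 passed at 5 mM, ranging from 0 to 5271, 133 to 7413 and 2188 to 10570, and 0, 237 and 761 at 1 mM, ranging from 0 to 350, 0 to 1001 and 0 to 2716. In control cells 15571, 15187 and 19646 passed, or 7131, 3154 and 11208 without normalization between arrays and 4819, 5200 and 11758 with averaged controls. In MAA cells without it, 6437, 4223 and 10799 passed at 5 mM (main 13422, 14370 and 18165) and 4977, 3370 and 9664 at 1 mM (main 11507, 13069 and 16856). Fits without an array have fewer samples, and apart from that the cause was not tested. The signal of Egr3 and of the other Ier2 probe was too near background for their ratios to be read.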
